A study of Mus musculus with 12 samples.

Results

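The 37 genes described here encode the machinery that copies DNA, apart from the Mcm helicase family, and were taken by gene symbol from a list of origin, polymerase, clamp and S-phase genes. The list was chosen with earlier results of these data known. All 37 were found among the 48576 symbols of the count files, and all 37 passed the filter on low counts, which left 17964 tested genes. They fall into 10 roles: origin recognition and licensing (5 genes), helicase activation (5), DNA polymerase alpha-primase (4), the leading and lagging strand polymerases (3), the sliding clamp and its loader (6), Okazaki fragment maturation (2), single-strand binding and the replication checkpoint (4), ribonucleotide reductase (2), the histone chaperone CAF-1 (2) and E2F transcription factors (4). RNA-seq counts of 12 mouse livers were compared across 5 groups from 2 models in which a growth-promoting gene is switched on in the liver.

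In the YAP model all mice carried Col-TRE-YAPS127A, a doxycycline-inducible form of the Hippo pathway effector YAP that resists inhibitory phosphorylation, and Rosa26-LSL-rtTA, a transactivator that needs Cre to be expressed. Cre came from an AAV with the hepatocyte promoter TBG, given at 8 to 10 weeks of age. The groups were livers with 4 weeks of YAPS127A induction (n = 3), livers with 2 weeks of induction (n = 2) and uninduced livers of the same genotype, the YAP controls (n = 2); both induction times share these controls. The labels do not say whether the controls received AAV-TBG-Cre or doxycycline, so in every YAP comparison any effect of these agents and that of YAPS127A cannot be told apart. In the MYC model, LAP-tTA, a tetracycline-repressible activator driven by a liver promoter, turned on TRE-MYC from about embryonic day 8, once the mothers no longer received doxycycline. MYC livers (LAP-tTA with TRE-MYC, n = 3) were collected 4 weeks after birth and were set against LAP-tTA livers on the same doxycycline schedule, the MYC controls (n = 2). No collection age is given for the MYC controls or the YAP controls. The induced livers of the 2 models differ in age, driver and duration of expression as well as in the transgene. Although the samples are labelled as hepatocytes, their RNA was extracted from whole liver tissue, so fewer cells of a type and less RNA per cell cannot be told apart. Each library was taken as 1 liver; nothing in the labels says that the livers are of separate animals, so the p-values measure the spread between these samples.

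Before S phase, the origin recognition complex with CDC6 and CDT1 loads the Mcm helicase onto DNA, and geminin keeps CDT1 from acting again until the next cycle. CDC45 and the GINS complex then activate the helicase, polymerase alpha-primase lays down primers, and polymerases epsilon and delta extend them on the clamp PCNA, which the RFC complex loads. Most of these genes are transcribed under the control of E2F factors, and in the adult liver they are low because hepatocytes are largely quiescent.

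Libraries held 12511170 to 17690798 counts. Levels are given as CPM, counts scaled to library size with TMM factors, which hold the level of the typical gene between libraries; scaling to total counts instead moved the median log2 fold change of all genes from 0.18 to 0.91 at 4 weeks of YAP, from 0.10 to 0.64 at 2 weeks and from 0.02 to 0.43 with MYC. Under the mouse symbols of the transgenes, Yap1 was at 65.6 to 85.8 CPM at 4 weeks and 80.1 and 87.4 CPM at 2 weeks. YAP controls had 81.2 and 86.5 CPM of it, MYC livers 45.7 to 57.8 CPM and MYC controls 73.4 and 73.7 CPM. Myc was at 22.2 to 31.4 CPM in MYC livers and 6.71 and 15.5 CPM in MYC controls. In the YAP model it was at 64.8 to 117 CPM at 4 weeks and 105 and 107 CPM at 2 weeks. The YAP controls had 53.2 and 8.17 CPM of it, and every induced YAP liver lay above every MYC liver. Myc passed edgeR's test in no comparison with controls (adjusted p = 0.0792 at 4 weeks, 0.0871 at 2 weeks and 0.242 with MYC). The labels do not give the species of the transgenes, so these symbols need not count them. By Xist and Y-linked genes, the 4-week livers and 2-week replicate 2 had a female pattern and the other 8 libraries a male one, so at 4 weeks sex and induction cannot be told apart. Among the 4-week livers, replicate 1 stood apart: its summed cholangiocyte markers were at 517 CPM against 3245 and 3338 CPM in the others. Skeletal muscle markers summed to 474 and 528 CPM in the 2-week livers and to at most 20.4 CPM in every other library.

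Replication genes rose in all 3 comparisons with controls and none fell. With 4 weeks of YAP 13 of the 37 were higher (35.1%), where 18.1% of all tested genes were higher and 15.7% lower. At 2 weeks 18 were higher (48.6%), against 15.1% of all genes (12.7% lower), and with MYC 21 were higher (56.8%), against 9.76% of all genes, with 8.56% lower (edgeR quasi-likelihood test, Benjamini-Hochberg adjusted p under 0.05). The median log2 fold change of the 37 was 1.11 at 4 weeks, 1.37 at 2 weeks and 1.71 with MYC, and over all tested genes it was 0.18, 0.10 and 0.02 in the same comparisons. In 23 genes (62.2%) all 4-week livers lay above both YAP controls, in 30 genes (81.1%) both 2-week livers did, and in 32 genes (86.5%) all MYC livers lay above both MYC controls. The shares of all genes arranged in this way were 33.5%, 36.6% and 26.8%. With total-count scaling 27 members were higher at 4 weeks, 28 at 2 weeks and 27 with MYC, where 43.8%, 29.1% and 18.2% of all genes were higher.

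**Figure D1:**
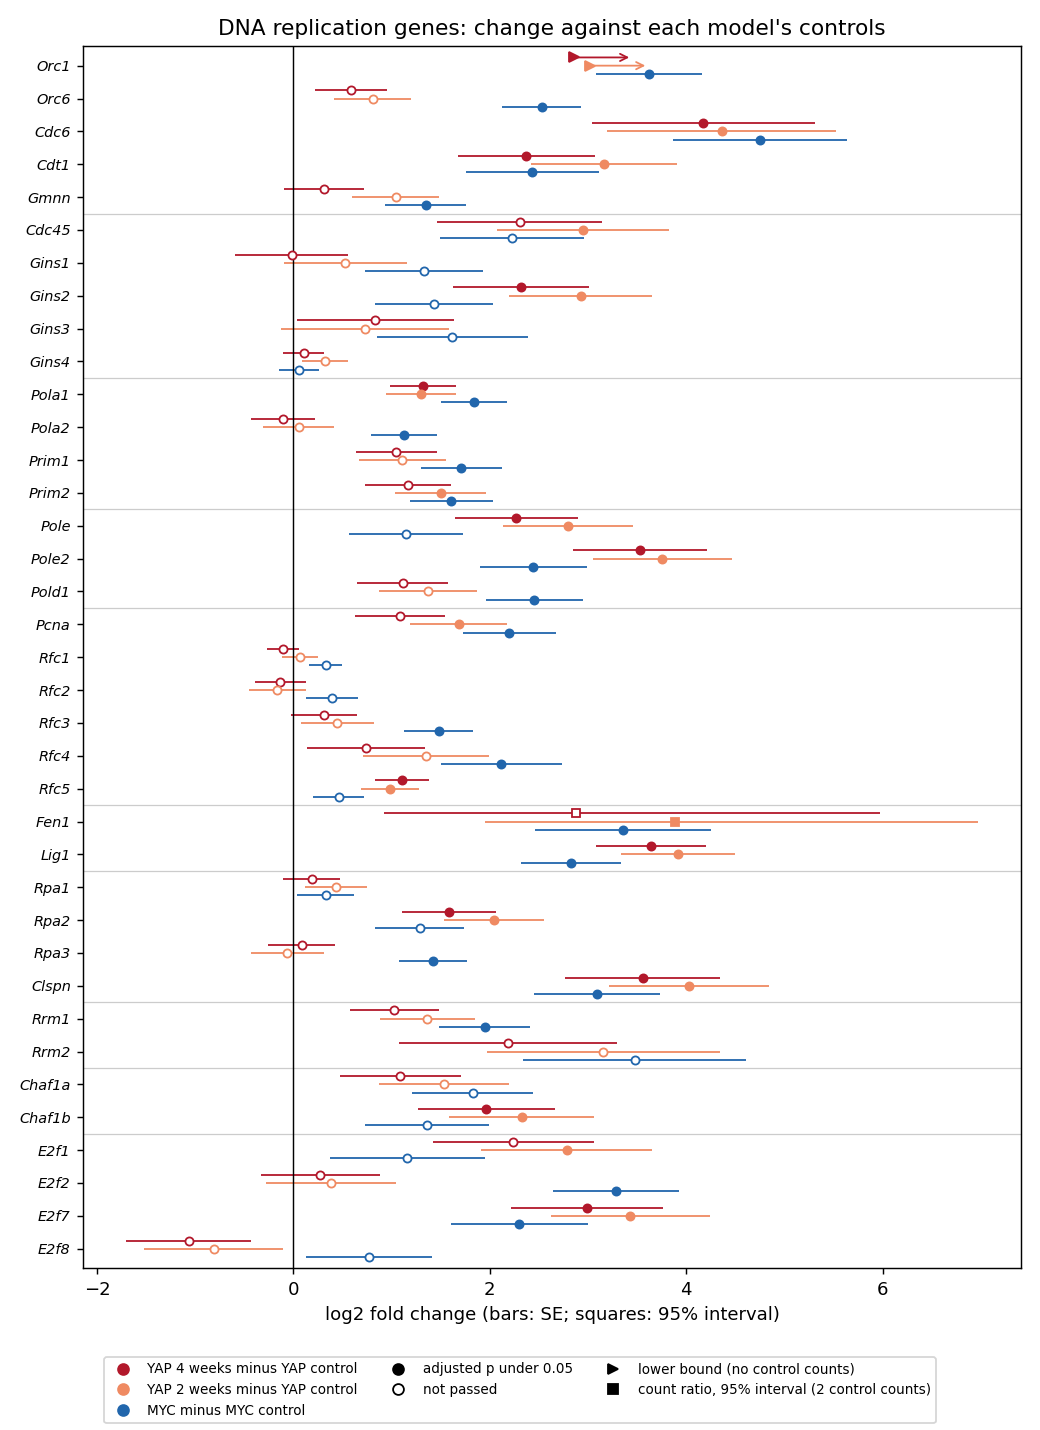
Log2 fold change of each replication gene (rows, grouped by role) in livers with 4 weeks of YAP, 2 weeks of YAP and MYC against the controls of each model. Circles are edgeR estimates with standard errors worked back from the F statistic of the test. Triangles are the lower bounds of Orc1, squares the count ratios of Fen1 with 95% intervals, and filled symbols passed the test. Filled symbols lie to the right of 0 throughout, 13 at 4 weeks, 18 at 2 weeks and 21 with MYC.

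These counts rested on few livers. At 4 weeks the number of members higher was 7 without YAP control 1, 4 without YAP control 2, 9 without 4-week replicate 1, 17 without replicate 2 and 11 without replicate 3. At 2 weeks it was 8 without YAP control 1, 4 without YAP control 2, 11 without 2-week replicate 1 and 8 without replicate 2, the last with livers of the male pattern alone. With MYC it was 2 without MYC control 1, 6 without MYC control 2, 23 without MYC replicate 1, 13 without replicate 2 and 19 without replicate 3. Orc1, Pole2 and Lig1 kept their calls at both YAP times whichever library was left out, and Orc1 and Orc6 kept theirs with MYC. Every other YAP call was lost without YAP control 1 or YAP control 2, and every other MYC call was lost without MYC control 1.

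Orc1, Cdc6, Cdt1, Pola1, Pole2, Lig1, Clspn and E2f7, 8 of the 37, passed with MYC and at both YAP times, which share their controls. Gins2, Pole, Rfc5, Rpa2 and Chaf1b completed the 13 genes at 4 weeks, and these with Cdc45, Prim2, Pcna, Fen1 and E2f1 the 18 at 2 weeks. Of the 18 genes higher at 2 weeks, 11 were higher with MYC, which is 61.1% of the YAP genes and 52.4% of the 21 MYC genes; over all tested genes 837 were higher in both, 30.8% and 47.7% of each list. Of the 13 genes higher at 4 weeks, 8 were higher with MYC, 61.5% and 38.1% of each list, where all genes gave 847, or 26% and 48.3%. Another 10 genes passed with MYC and at neither YAP time (Orc6, Gmnn, Pola2, Prim1, Pold1, Rfc3, Rfc4, Rpa3, Rrm1 and E2f2), and 7 passed at a YAP time and not with MYC (Cdc45, Gins2, Pole, Rfc5, Rpa2, Chaf1b and E2f1). The lists changed with total-count scaling: Orc6, Prim1, Pold1 and Rrm1 then passed at both YAP times as well as with MYC, Cdc45, Gins2 and Rpa2 passed with MYC as well as with YAP, and Gins4, Rpa1 and Chaf1a rose at both YAP times. Passing in 1 model and not in the other does not show a difference between them: tested directly, the MYC effect exceeded the 4-week effect in 1 member, Orc6, and the 2-week effect in 0. Against 4 weeks 3.15% of all genes had a higher and 4.33% a lower MYC effect (7.48% in all), and against 2 weeks 2.59% and 3.78% (6.37%). At an unadjusted p under 0.05 there were 6 and 5 members, and DESeq2 called 2, Orc6 and E2f2, in each.

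**Figure D2:**
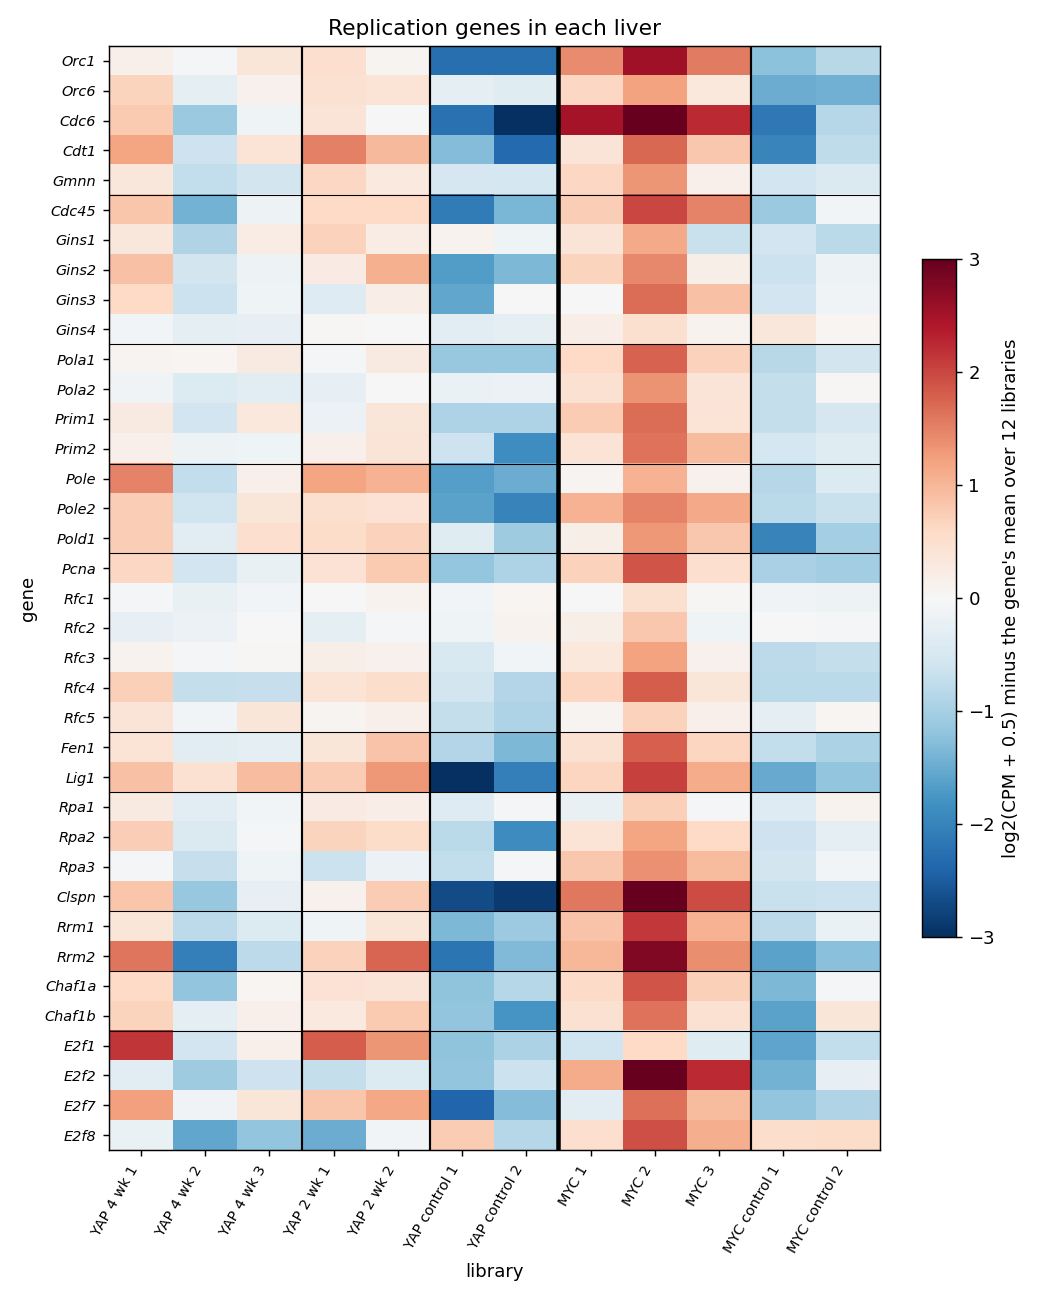
Level of each replication gene (rows) in each of the 12 livers (columns), as log2(CPM + 0.5) minus the mean of the gene over all livers, with red for higher and blue for lower. MYC replicate 2 is the reddest column, and the YAP control columns hold the deepest blue, in Orc1, Cdc6, Lig1 and Clspn.

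Promoter sequences are shown for the 8 genes that rose in all 3 comparisons with TMM scaling, because each holds an E2F word. RefSeq promoter windows on GRCm38.p6, 250 bases before to 50 after the start, were given for 30 of the 37 members (34 windows); Gmnn, Gins1, Gins2, Gins4, Prim2, Pole and Rfc2 had none. The E2F words searched on both strands were TTTCCCGC, TTTGGCGC, TTTCGCGC and TTTGCCGC. They occurred in 12 of the 34 member windows (35.3%) and in 744 of all 32851 windows (2.26%). Members with a word were all 8 genes that rose in the 3 comparisons, 3 of the 9 with a window among those higher with MYC alone (Pold1, Rfc3 and E2f2), 0 of 5 among those higher at a YAP time alone, and 1 of 6 (Gins3) among those that passed nowhere. This split holds for the TMM calls only. With total-count scaling Orc6, Cdc45, Prim1, Pcna, Fen1, Rpa2, Rrm1 and Chaf1a also rose in all 3 comparisons, and their windows held no word. Pold1, which has a word, then rose in all 3 as well. The E-box CACGTG, the core bound by MYC with MAX, was in 6 member windows (17.6%, against 7.15% of all windows), and CATTCC, the core bound by the YAP partners of the TEAD family, in 3 (8.82%, against 14.7%). These are descriptions with no test; a match of letters is not a bound site, and a missing match says only that these letters are not in that window. In the stretches below, written 5′ to 3′ along the gene's strand, capitals mark the E2F word, which reads as its reverse complement where it lies on the opposite strand.
Orc1, chr4:108579401-108579460, plus strand: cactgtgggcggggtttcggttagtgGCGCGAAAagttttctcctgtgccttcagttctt
Cdc6, chr11:98907987-98908046, plus strand: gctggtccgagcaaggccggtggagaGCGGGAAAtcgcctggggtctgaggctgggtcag
Cdt1, chr8:122568035-122568064, plus strand: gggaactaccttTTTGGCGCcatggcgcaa
Pola1, chrX:93632260-93632319, minus strand: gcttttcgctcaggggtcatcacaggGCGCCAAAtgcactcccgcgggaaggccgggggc
Pole2, chr12:69228162-69228191, minus strand: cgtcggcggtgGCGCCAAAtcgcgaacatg
Lig1, chr7:13278841-13278870, plus strand: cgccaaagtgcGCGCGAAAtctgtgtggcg
Clspn, chr4:126556990-126557019, plus strand: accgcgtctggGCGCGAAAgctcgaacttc
E2f7, chr10:110745215-110745274, plus strand: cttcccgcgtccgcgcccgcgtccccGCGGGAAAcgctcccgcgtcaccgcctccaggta
Positions are counted from the start on which the RefSeq window is set. The first base of the word lies 27 bases before this start in Orc1 and 138 before it in Cdc6 and in Pola1. In E2f7 it lies 198 bases before the start. In Pole2, Clspn, Lig1 and Cdt1 the word lies within the 50 bases after this start. Lig1 had several windows, and only the window shown held a word. In GENCODE, Orc1, Cdc6, Lig1, Clspn and Pole2 begin further upstream. Their words and that of Cdt1 lie inside the GENCODE gene, and those of Pola1 and E2f7 lie before it.

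Among the origin genes, Orc1, Cdc6 and Cdt1 rose in both models. Orc1 (ENSMUSG00000028587.18, chromosome 4, 108579423 to 108614833), the largest subunit of the origin recognition complex, was at 2.16, 1.84 and 2.61 CPM in 4-week livers and at 2.90 and 2.03 CPM in 2-week livers, while both YAP controls had no count. Against a floor of 3 counts per control library it was at least 7.24-fold higher at 4 weeks (adjusted p = 0.00068) and at least 8.12-fold higher at 2 weeks (adjusted p = 0.000848). MYC livers had 5.96, 13.6 and 6.56 CPM of Orc1 and MYC controls 0.530 and 0.858 CPM, a log2 fold change of 3.62 ± 0.54 (SE, adjusted p = 0.0022). No induced or MYC liver overlapped its controls.

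Cdc6 (chromosome 11, 98907801 to 98923940), the ATPase that brings the helicase to the origin, showed the steepest rise with MYC among the members. It was at 22.8, 50.7 and 19.0 CPM in MYC livers and 0.442 and 1.79 CPM in MYC controls, a log2 fold change of 4.75 ± 0.88 (adjusted p = 0.00645). The 4-week YAP livers had 6.67, 1.43 and 3.28 CPM and the 2-week livers 4.96 and 3.65 CPM, against 0.386 and 0 CPM in YAP controls. The induced livers at each time lay above both YAP controls and the MYC livers above both MYC controls, and the log2 fold changes were 4.18 ± 1.13 at 4 weeks (adjusted p = 0.0182) and 4.36 ± 1.17 at 2 weeks (adjusted p = 0.0204). Cdt1, its partner in loading the helicase, was at 26.9, 7.34 and 15.5 CPM at 4 weeks, 33.9 and 23.4 CPM at 2 weeks and 4.44 and 1.91 CPM in YAP controls. MYC livers had 15.3, 39.7 and 20.8 CPM of Cdt1, against 2.56 and 6.71 CPM in MYC controls. Its log2 fold changes were 2.37 ± 0.70 (adjusted p = 0.0264) at 4 weeks, 3.16 ± 0.74 (adjusted p = 0.012) at 2 weeks and 2.43 ± 0.68 (adjusted p = 0.0335) with MYC.

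**Figure D3:**
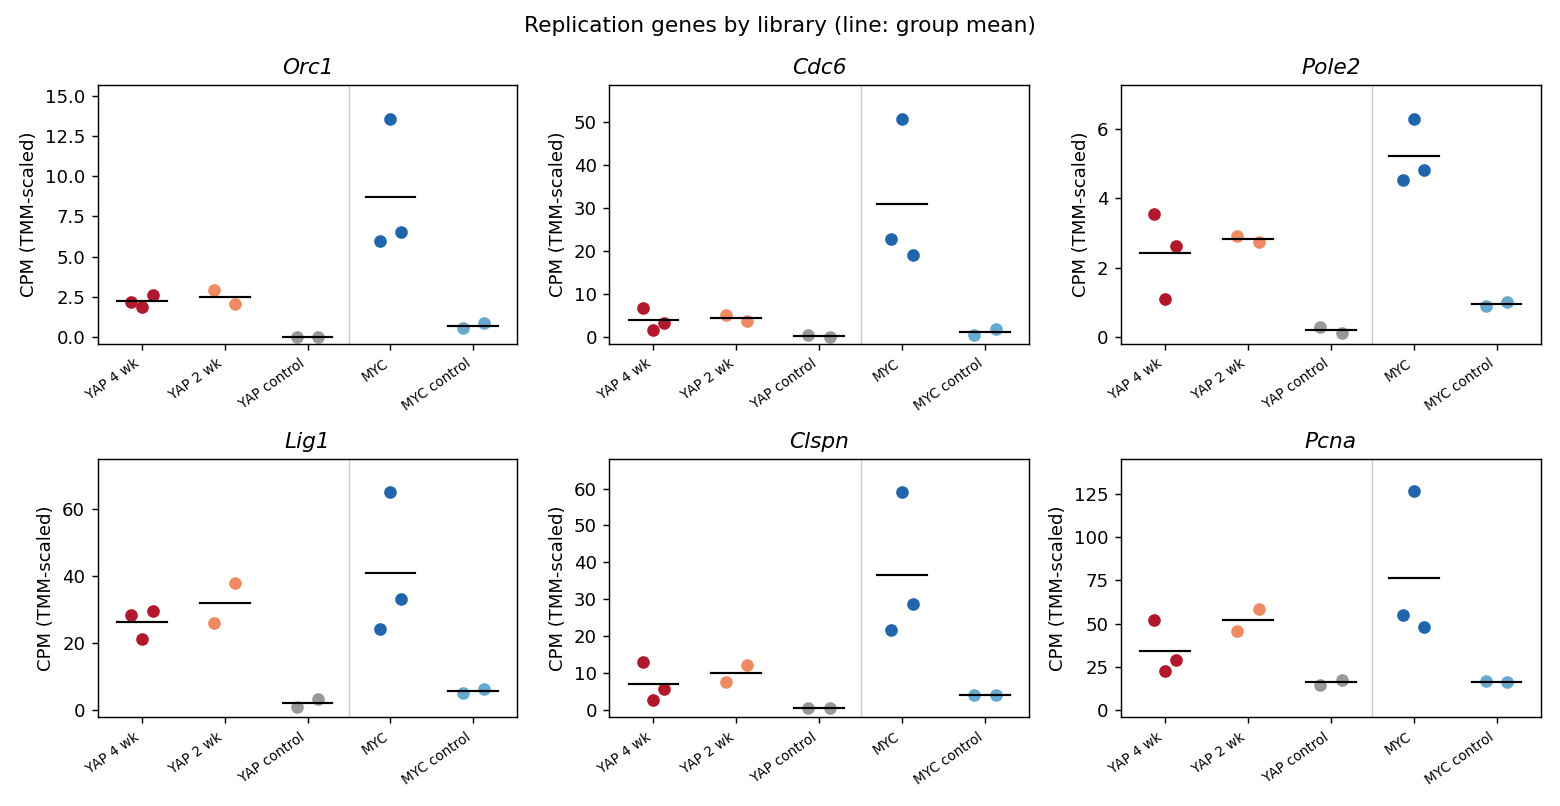
CPM (TMM-scaled) of 6 replication genes in each liver, with group means as lines and points as livers, for 4 weeks of YAP, 2 weeks of YAP, YAP controls, MYC and MYC controls from left to right. Every induced or MYC liver lies above its own controls in all 6 genes, and MYC replicate 2 is the top point of each panel.

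Orc6 and Gmnn passed with MYC alone. Orc6, the smallest origin recognition subunit, was at 8.46, 12.9 and 6.79 CPM in MYC livers and 1.59 and 1.64 CPM in MYC controls (log2 fold change 2.53 ± 0.40, adjusted p = 0.00227). In the YAP model it was at 8.70, 4.36 and 5.89 CPM at 4 weeks, 7.51 and 7.17 CPM at 2 weeks and 4.35 and 4.03 CPM in YAP controls. The MYC controls were thus lower than the YAP controls. The induced livers of the models overlapped, at 4.36 to 8.70 CPM with YAP and 6.79 to 12.9 CPM with MYC. Gmnn, which encodes geminin, the inhibitor of CDT1, was at 14.1, 23.4 and 9.98 CPM in MYC livers and 5.83 and 6.55 CPM in MYC controls (1.35 ± 0.41, adjusted p = 0.0422). Its 4-week values of 11.6, 5.22 and 6.01 CPM overlapped the YAP controls at 6.18 and 6.05 CPM, and the 2-week livers had 14 and 11.2 CPM (1.04 ± 0.44, adjusted p = 0.10).

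Of the 5 genes for helicase activation, 1 rose at 4 weeks, 2 rose at 2 weeks and 0 passed with MYC. Of all tested genes 18.1%, 15.1% and 9.76% were higher in these comparisons, so the 4-week count is near that share. Cdc45, which joins the helicase as it fires, was at 5.17 and 5.20 CPM at 2 weeks, against 0.386 and 0.955 CPM in YAP controls (2.95 ± 0.88, adjusted p = 0.0288). Its 4-week values of 6.16, 0.918 and 2.89 CPM overlapped the controls in replicate 2 (2.30 ± 0.84, adjusted p = 0.0541). In MYC livers it was at 5.78, 14.5 and 10.0 CPM and in MYC controls at 1.24 and 3.04 CPM, which did not overlap but did not pass either (2.23 ± 0.73, adjusted p = 0.0574). Gins2 rose at both YAP times, with 5.27, 1.66 and 2.34 CPM at 4 weeks and 3.26 and 6.10 CPM at 2 weeks, against 0.483 and 0.743 CPM in YAP controls. The log2 fold changes were 2.32 ± 0.69 (adjusted p = 0.0245) and 2.93 ± 0.73 (adjusted p = 0.0126). Of the exonic bases of Gins2, 67.3% overlap Gse1 on the other strand, and the strand setting of the counts is not stated, so reads of the pair cannot be told apart. The other GINS subunits, Gins1, Gins3 and Gins4, passed in no comparison with TMM scaling. Gins3 was at 2.99, 0.975 and 1.61 CPM at 4 weeks and 1.28 and 2.15 CPM at 2 weeks, on both sides of YAP control 2 at 1.80 CPM, while YAP control 1 had 0.290 CPM. In MYC livers it was at 1.85, 6.94 and 3.77 CPM, above MYC controls at 1.06 and 1.64 CPM (1.62 ± 0.77, adjusted p = 0.169). Gins1 was at 4.76, 8.41 and 2.03 CPM in MYC livers, against 2.21 and 1.79 CPM in MYC controls, so that replicate 3 fell between the controls. Gins4 varied little, at 9.53, 8.32 and 8.45 CPM at 4 weeks, 10.3 and 10.0 CPM at 2 weeks and 8.02 and 8.27 CPM in YAP controls, and at 11.7, 14.3 and 11 CPM in MYC livers, against 13.1 and 10.7 CPM in MYC controls.

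All 4 subunits of polymerase alpha-primase, which starts every new strand, rose with MYC, by 1.13 to 1.84 on the log2 scale. With MYC 9.76% of all tested genes were higher. Pola1 (chromosome X, 93304767 to 93632155), the catalytic subunit, was at 29.96, 68.4 and 32.0 CPM in MYC livers and 10.9 and 13.3 CPM in MYC controls (1.84 ± 0.33, adjusted p = 0.00465). It also rose in the YAP model, evenly across livers: 20.8, 20.6 and 24.0 CPM at 4 weeks and 18.9 and 24.1 CPM at 2 weeks, against 8.79 and 8.70 CPM in YAP controls. The log2 fold changes were 1.32 ± 0.34 (adjusted p = 0.0117) and 1.30 ± 0.36 (adjusted p = 0.02). Pola2, the regulatory subunit of the same enzyme, was at 15.0, 28.1 and 14.3 CPM in MYC livers and 6.36 and 11.1 CPM in MYC controls (1.13 ± 0.34, adjusted p = 0.038). At 4 weeks of YAP it was at 9.97, 7.97 and 8.45 CPM and at 2 weeks at 9.0 and 10.6 CPM, with YAP controls at 9.37 and 9.55 CPM inside both ranges. Prim2, the large primase subunit, rose at 2 weeks to 9.21 and 11.1 CPM, against 5.22 and 1.91 CPM in YAP controls (1.5 ± 0.47, adjusted p = 0.0338), and with MYC (1.61 ± 0.43, adjusted p = 0.0241). Prim1, the catalytic primase subunit, rose with MYC by 1.71 ± 0.41 on the log2 scale (adjusted p = 0.016). At 4 weeks of YAP it was at 13.6, 7.28 and 14 CPM and at 2 weeks at 9.85 and 14.4 CPM, all above YAP controls at 5.60 and 5.62 CPM, but the log2 fold changes of 1.05 and 1.11 did not pass.

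Both members that belong to polymerase epsilon, the leading strand enzyme, rose at both YAP times, where 18.1% (4 weeks) and 15.1% (2 weeks) of all tested genes were higher. Pole, its catalytic subunit, was at 43.8, 9.0 and 17.1 CPM at 4 weeks, 35 and 32.0 CPM at 2 weeks and 4.54 and 5.09 CPM in YAP controls (2.27 ± 0.63, adjusted p = 0.0199 at 4 weeks and 2.80 ± 0.67, adjusted p = 0.0125 at 2 weeks). In MYC livers it was at 16.0, 32.1 and 16.8 CPM, above MYC controls at 8.13 and 11.4 CPM, without passing (1.14 ± 0.58, adjusted p = 0.202). Pole2 (chromosome 12, 69201773 to 69228195), the second subunit, was at 3.56, 1.09 and 2.61 CPM at 4 weeks and 2.90 and 2.75 CPM at 2 weeks, against 0.290 and 0.106 CPM in YAP controls. MYC livers had 4.53, 6.31 and 4.82 CPM of Pole2 and MYC controls 0.884 and 1.01 CPM. Its log2 fold changes were 3.53 ± 0.68 (adjusted p = 0.00285) at 4 weeks, 3.76 ± 0.71 (adjusted p = 0.00296) at 2 weeks and 2.45 ± 0.54 (adjusted p = 0.0114) with MYC. Pold1, the catalytic subunit of the lagging strand polymerase delta, rose with MYC to 8.87, 20.0 and 14.1 CPM, against 1.59 and 3.59 CPM in MYC controls (2.45 ± 0.49, adjusted p = 0.00741). At 4 weeks it was at 13.5, 6.19 and 11.3 CPM and at 2 weeks at 11.7 and 13 CPM, all above YAP controls at 5.99 and 3.50 CPM, with adjusted p = 0.0838 and 0.0596.

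Pcna (chromosome 2, 132249162 to 132253314), the sliding clamp, rose with MYC and at 2 weeks of YAP, while the genes of its loader passed in some comparisons and not in others. MYC livers had 54.7, 126 and 48.1 CPM of Pcna, against 17.1 and 16.1 CPM in MYC controls (2.20 ± 0.47, adjusted p = 0.0121). The 2-week livers had 46.0 and 58.3 CPM and the 4-week livers 52.0, 22.5 and 28.8 CPM, against 14.9 and 17.6 CPM in YAP controls (1.68 ± 0.49, adjusted p = 0.0291 at 2 weeks and 1.08 ± 0.46, adjusted p = 0.0914 at 4 weeks). Pcna has pseudogenes, Pcna-ps1 and Pcna-ps2, which could share its reads. Per kilobase of exon, Pcna was the highest member in MYC livers, at 31.8 CPM per kb, and in 4-week and 2-week livers, at 14.4 and 21.7 CPM per kb. In YAP controls it was at 6.77 CPM per kb, behind Rfc1 at 8.53, and in MYC controls at 6.93 CPM per kb, behind Gins4 at 8.81 and Rfc1 at 7.80.

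Of the 5 loader subunits, Rfc1 and Rfc2 passed in no comparison with TMM scaling. With total-count scaling Rfc1 was higher at 4 weeks (log2 fold change 0.63, adjusted p = 0.0338) and with MYC (0.75, adjusted p = 0.0312). Rfc1, the large subunit, lay between 44.2 and 55.8 CPM in all livers of the YAP model, and at 51.2, 72.8 and 53.1 CPM in MYC livers, against 47.8 and 46.2 CPM in MYC controls. Rfc3 and Rfc4, small subunits shared by the complex, rose with MYC. Rfc3 was at 8.46, 16.1 and 7.37 CPM in MYC livers and 3.71 and 3.90 CPM in MYC controls (1.48 ± 0.35, adjusted p = 0.0155), and Rfc4 was at 6.37, 15 and 5.22 CPM in MYC livers, with both MYC controls at 2.03 CPM (2.12 ± 0.61, adjusted p = 0.0342). With YAP, Rfc4 was at 6.73, 2.18 and 2.22 CPM at 4 weeks and 5.38 and 5.92 CPM at 2 weeks, against 2.51 and 1.91 CPM in YAP controls; the 2-week livers were separate from the controls and the 4-week livers were not. Rfc5 passed at both YAP times: it was at 13.7, 9.64 and 13.3 CPM at 4 weeks and 10.9 and 11.4 CPM at 2 weeks, against 6.09 and 5.20 CPM in YAP controls (1.11 ± 0.27, adjusted p = 0.0104 and 0.98 ± 0.29, adjusted p = 0.0287). With MYC it was at 11, 17.0 and 11.5 CPM, against 8.31 and 10.8 CPM in MYC controls (0.46 ± 0.26, adjusted p = 0.25).

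Lig1 and Fen1, which process and seal the fragments of the lagging strand, were among the largest changes. Lig1 (chromosome 7, 13277283 to 13311433), the replicative DNA ligase, was at 28.4, 21.2 and 29.4 CPM at 4 weeks and 25.9 and 37.8 CPM at 2 weeks, against 0.966 and 3.29 CPM in YAP controls. The induced livers lay far above the controls, with log2 fold changes of 3.64 ± 0.56 (adjusted p = 0.00106) at 4 weeks and 3.92 ± 0.58 (adjusted p = 0.00112) at 2 weeks. MYC livers had 24.2, 64.8 and 33.3 CPM, against 5.04 and 6.39 CPM in MYC controls (2.83 ± 0.51, adjusted p = 0.00514). Fen1, the flap endonuclease, was barely detected, with 38 counts over the 4-week livers, 46 over the 2-week livers and 2 over the YAP controls. The normalised ratio to controls was 7.35 at 4 weeks (95% counting interval 1.90 to 62.8, adjusted p = 0.0595) and 14.8 at 2 weeks (3.86 to 125, adjusted p = 0.0232), and such intervals cover counting error only. MYC livers had 1.25, 3.93 and 1.51 CPM of Fen1, against 0.265 and 0.156 CPM in MYC controls (3.36 ± 0.89, adjusted p = 0.0245). Of its exonic bases, 84.2% overlap Gm10143 and Tmem258 on the other strand, so its counts are uncertain.

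Clspn encodes claspin, an adaptor that links stalled forks to the checkpoint kinase, and it rose in both models. It was at 13, 2.92 and 5.84 CPM at 4 weeks and 7.79 and 12.2 CPM at 2 weeks, against 0.676 and 0.530 CPM in YAP controls. In MYC livers it was at 21.9, 59.0 and 28.8 CPM, against 4.24 and 4.29 CPM in MYC controls. The livers of each induced group lay above their own controls, and the log2 fold changes at 4 weeks, at 2 weeks and with MYC were 3.56 ± 0.79 (adjusted p = 0.00706), 4.03 ± 0.82 (adjusted p = 0.00551) and 3.1 ± 0.64 (adjusted p = 0.00987). Among the 3 subunits of RPA, which coats single-stranded DNA, Rpa2 and Rpa3 passed in different comparisons. For none of the 3 did the difference between the MYC and YAP effects pass edgeR's test. With TMM scaling Rpa1 passed nowhere (log2 fold changes of 0.19 ± 0.29 at 4 weeks, 0.43 ± 0.31 at 2 weeks and 0.33 ± 0.29 with MYC). Rpa2 rose at both YAP times and Rpa3 rose with MYC. Rpa2 was at 11.2, 4.70 and 6.17 CPM at 4 weeks and 10.6 and 9.68 CPM at 2 weeks, against 3.48 and 1.38 CPM in YAP controls (1.59 ± 0.48, adjusted p = 0.0253 and 2.05 ± 0.51, adjusted p = 0.0126). Rpa3 was at 13, 19.3 and 14.3 CPM in MYC livers and 4.77 and 6.78 CPM in MYC controls (1.42 ± 0.35, adjusted p = 0.017), while in the YAP model all livers lay between 4.15 and 7.0 CPM.

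Ribonucleotide reductase makes the deoxynucleotides that replication consumes. Its large subunit gene Rrm1 rose with MYC to 60.7, 147 and 68.9 CPM, against 19.0 and 28.8 CPM in MYC controls (1.95 ± 0.46, adjusted p = 0.0176). With YAP it was at 42.9, 19.1 and 24.8 CPM at 4 weeks and 30.2 and 42.7 CPM at 2 weeks, above YAP controls at 12.8 and 15.5 CPM, without passing (adjusted p = 0.104 and 0.0611). Rrm2, the small subunit made in S phase, had large but scattered changes that passed nowhere with TMM scaling. It was at 47.0, 3.27 and 8.62 CPM at 4 weeks, 24.8 and 51.8 CPM at 2 weeks and 2.90 and 5.73 CPM in YAP controls, so that 4-week replicate 2 fell among the controls. MYC livers had 30.6, 107 and 40.7 CPM, against 4.60 and 6.08 CPM in MYC controls (3.47 ± 1.13, adjusted p = 0.0631). With total-count scaling Rrm2 passed edgeR's test at 2 weeks and with MYC (adjusted p = 0.0485 in each), and not at 4 weeks (0.0743).

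CAF-1 deposits histones behind the fork. Its subunit gene Chaf1b passed at both YAP times, narrowly at 4 weeks, with 7.94, 3.84 and 5.34 CPM at 4 weeks and 5.95 and 8.67 CPM at 2 weeks, against 1.84 and 1.06 CPM in YAP controls. The log2 fold changes were 1.96 ± 0.70 (adjusted p = 0.0497) and 2.32 ± 0.74 (adjusted p = 0.0372). In the MYC model the controls themselves differed, at 1.24 and 6.32 CPM, below 6.79, 15.8 and 6.79 CPM in MYC livers (adjusted p = 0.162). Chaf1a passed nowhere with TMM scaling, with log2 fold changes of 1.09 at 4 weeks, 1.53 at 2 weeks and 1.83 with MYC. It was at 14.2, 35.8 and 15.6 CPM in MYC livers, above MYC controls at 3.36 and 8.89 CPM, and 52.5% of its exonic bases overlap Ubxn6 on the other strand. With total-count scaling Chaf1a passed edgeR's test at 4 weeks, at 2 weeks and with MYC (adjusted p = 0.0387, 0.0379 and 0.0296).

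Of the 4 E2F genes, 1 rose at 4 weeks, 2 rose at 2 weeks and 2 rose with MYC. The shares of all tested genes that were higher were 18.1%, 15.1% and 9.76%. The difference of the MYC effect from either YAP effect did not pass edgeR's test for any of them. E2f1, an activator of S-phase genes, was at 37.3 and 26.4 CPM at 2 weeks, against 4.15 and 5.09 CPM in YAP controls (2.78 ± 0.87, adjusted p = 0.0402), and at 47.5, 6.71 and 11.5 CPM at 4 weeks (2.24 ± 0.82, adjusted p = 0.0605). In MYC livers it was at 6.67, 15.8 and 7.95 CPM, against 3.09 and 5.93 CPM in MYC controls (1.16 ± 0.79, adjusted p = 0.347). E2f2, another activator, which is also strongly expressed in maturing red cell precursors, passed with MYC and at neither YAP time. MYC livers had 17.2, 76.9 and 37.9 CPM of it, against 2.56 and 6.39 CPM in MYC controls (3.28 ± 0.64, adjusted p = 0.00773). All livers of the YAP model lay between 3.09 and 5.91 CPM, with log2 fold changes of 0.28 ± 0.61 at 4 weeks and 0.38 ± 0.66 at 2 weeks. E2f7, a repressor that E2F activators induce, rose in all 3 comparisons. It was at 9.21, 3.33 and 4.78 CPM at 4 weeks and 6.87 and 8.79 CPM at 2 weeks, against 0.290 and 1.17 CPM in YAP controls (2.99 ± 0.78, adjusted p = 0.0133 and 3.43 ± 0.81, adjusted p = 0.0102). In MYC livers it was at 2.80, 12.5 and 7.43 CPM, against 1.33 and 1.72 CPM in MYC controls (2.30 ± 0.70, adjusted p = 0.0418). E2f8, the partner repressor, was the member with the most negative log2 fold changes, although they did not pass: -1.07 ± 0.64 at 4 weeks (adjusted p = 0.223) and -0.81 ± 0.71 at 2 weeks (adjusted p = 0.429). It was at 18.4, 6.82 and 8.95 CPM at 4 weeks and 7.16 and 20.0 CPM at 2 weeks, within or below the YAP controls at 36.1 and 11.5 CPM, and without YAP control 1 its 2-week value was 0.25.

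**Figure D4:**
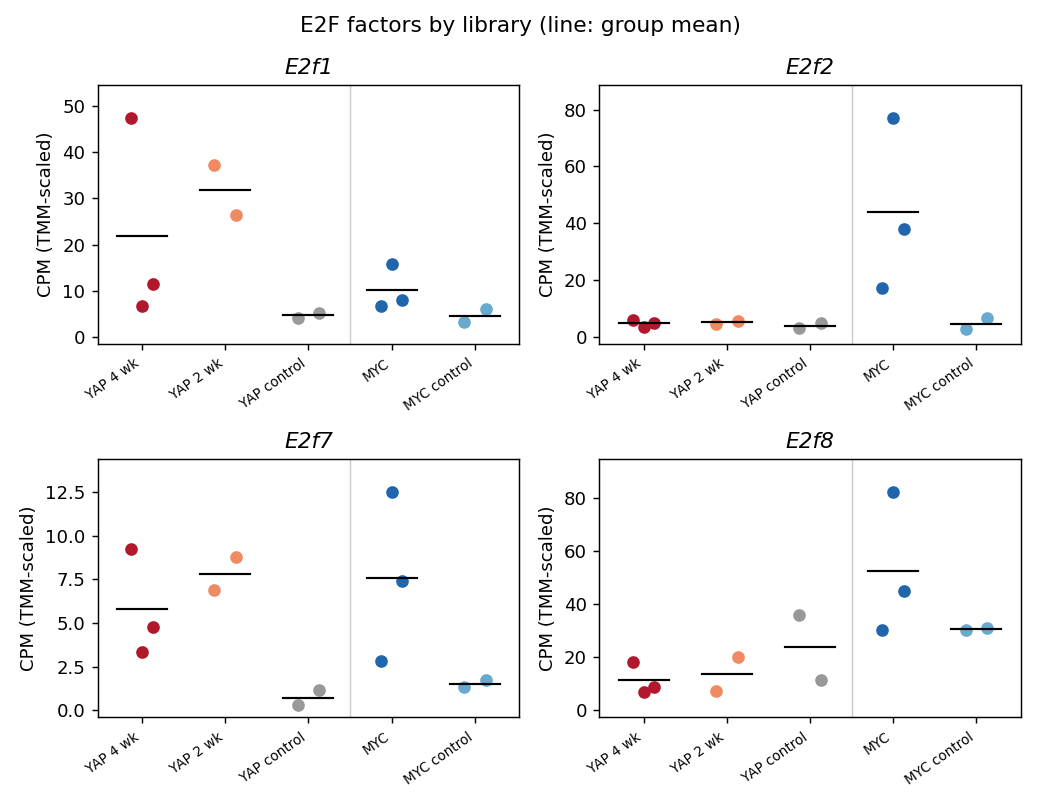
CPM (TMM-scaled) of 4 E2F genes in each liver, with lines at group means, for 4 weeks of YAP, 2 weeks of YAP, YAP controls, MYC and MYC controls from left to right. E2f1 is highest in induced YAP livers, at up to 47.5 CPM, and E2f2 in MYC livers, at up to 76.9 CPM, while E2f8 shows no separation in the YAP model.

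Between the YAP times, no member passed. Of 37 members, 32 had a lower estimate at 4 weeks than at 2 weeks, with a median log2 difference of -0.28 (0.02 over all genes), and the smallest adjusted p was 0.752; 0 members passed at an unadjusted p under 0.05, and DESeq2 called 0. Among all genes 0.0612% passed. In 3 members (8.11%; Gins4, Rfc1 and Rfc3) all 4-week livers lay below both 2-week livers, where 10.1% of all genes did. The 4-week livers were spread along 1 order: replicate 1 was the highest of the 3 in 32 members (86.5%, against 40.1% of all genes) and replicate 2 the lowest in 36 (97.3%, against 31.1%). The summed level of the 37 genes was 633, 299 and 408 CPM in 4-week replicates 1 to 3, 535 and 615 CPM in the 2-week livers and 256 and 253 CPM in YAP controls.

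Against the YAP effects, the MYC effect on Orc6 was larger by 1.94 ± 0.53 on the log2 scale than the 4-week effect (adjusted p = 0.0468) and by 1.72 ± 0.55 than the 2-week effect (adjusted p = 0.0872). With 1 library left out at a time the first difference passed in 2 of 10 fits, with adjusted p from 0.0168 to 0.172, and it was lost without each of YAP controls 1 and 2, 4-week replicates 2 and 3, MYC replicates 1 and 2 and MYC controls 1 and 2. With total-count scaling it was 1.64 (adjusted p = 0.0811). The difference for E2f2 was 3.01 ± 0.85 against 4 weeks (adjusted p = 0.0592) and 2.90 ± 0.89 against 2 weeks (adjusted p = 0.0843), which edgeR did not call and DESeq2 did (adjusted p = 0.00341 and 0.0092). In the MYC model, replicate 2 was the highest of the 3 MYC livers in 37 of 37 members, where it was the highest in 30.3% of all genes. The members summed to 613, 1390 and 693 CPM in MYC livers and to 271 and 335 CPM in MYC controls.

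**Figure D5:**
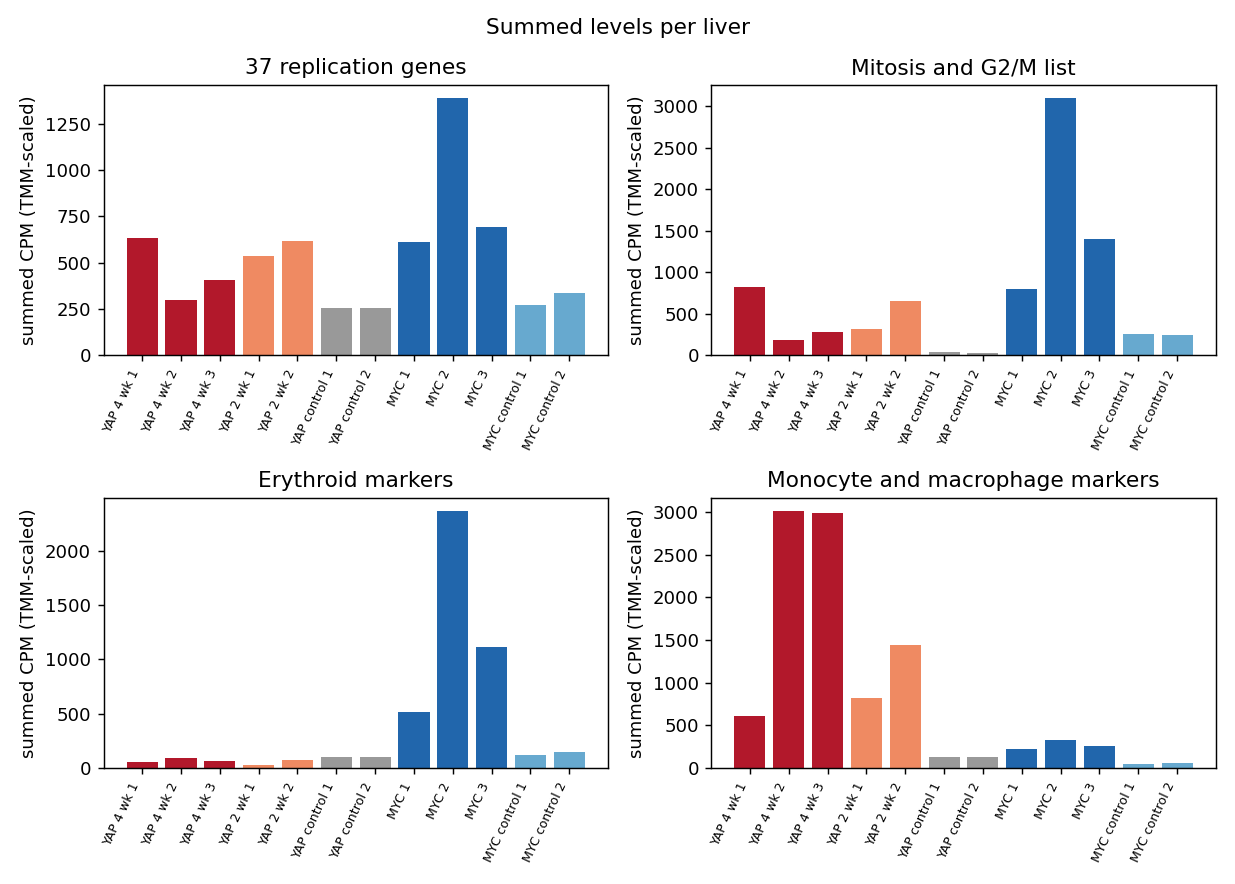
Summed CPM (TMM-scaled) of the 37 replication genes and of lists of mitotic genes, erythroid markers and monocyte and macrophage markers in each liver, in the order 4 weeks of YAP, 2 weeks of YAP, YAP controls, MYC, MYC controls. MYC replicate 2 has the tallest bar for replication genes (1390), mitotic genes (3104) and erythroid markers (2372). The tallest bars for macrophage markers are those of 4-week replicates 2 and 3 (3015 and 2990). The macrophage list holds Spp1, which is also on the cholangiocyte list.

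Markers of several other cell types moved beside these genes. Over all tested genes, 18.1% were higher and 15.7% lower at 4 weeks, 15.1% and 12.7% at 2 weeks, and 9.76% and 8.56% with MYC. Of 11 tested erythroid markers, 6 rose with MYC and 5 did not pass, among them Klf1, a red cell transcription factor, at 34.2, 98.8 and 36.6 CPM in MYC livers, against 2.65 and 1.25 CPM in MYC controls. The erythroid sum was 513, 2372 and 1111 CPM in MYC livers, against 120 and 149 CPM in MYC controls, where Hba-a2 had no count. In the YAP model it was 55.1 to 87.4 CPM at 4 weeks, 27.1 and 72.3 CPM at 2 weeks and 103 and 98.3 CPM in controls, and 0 of 11 markers rose and 1 fell at each time. Of 10 neutrophil markers, 8 rose at 4 weeks of YAP, 7 at 2 weeks and all 10 with MYC, where their sum was 659 to 1361 CPM, against 6.10 and 7.25 CPM in MYC controls, in which Retnlg and Ly6g had no count. All 11 monocyte and macrophage markers rose at both YAP times; their sum was 605 to 3015 CPM at 4 weeks and 823 and 1445 CPM at 2 weeks, against 125 and 128 CPM in YAP controls, in which Ly6c2 had no count. With MYC 8 of those 11 rose and 1, Cx3cr1, fell. Of 10 markers of Kupffer cells, the resident macrophages of the liver, 3 rose at 4 weeks, 6 at 2 weeks and 3 with MYC, and none was at 0 counts in any group. Their sum was 412 to 1164 CPM at 4 weeks and 2068 and 1566 CPM at 2 weeks, against 317 and 333 CPM in YAP controls, and 638 to 943 CPM in MYC livers, against 328 and 312 CPM in MYC controls. Of 11 tested skeletal muscle markers, 2 rose at 4 weeks, which is near the share of all genes, 10 at 2 weeks and 0 with MYC. Of 9 tested cholangiocyte markers, 6 rose at 4 weeks, 4 at 2 weeks and 0 with MYC. Spp1 is on this list and on the monocyte and macrophage list, so it counts in both sums. Among 11 tested hepatocyte markers, 8 fell at 4 weeks, 4 at 2 weeks and 5 with MYC (4, 3 and 2 with total-count scaling). Their sum was 38680 to 77580 CPM at 4 weeks and 94320 and 75100 at 2 weeks, against 105200 and 89970 CPM in YAP controls. In MYC livers it was 34370 to 60970 CPM, against 122900 and 117000 CPM in MYC controls. Most markers of the remaining lists did not pass. Of 8 B cell markers, 0 passed against controls. Of 8 tested T and NK cell markers, 2 rose and 1 fell at 4 weeks, 1 rose at 2 weeks and 0 passed with MYC. Of 10 sinusoidal endothelial markers, 0 passed at 4 weeks, 2 rose at 2 weeks and 1 fell with MYC. Of 10 stellate cell markers, 1 rose and 2 fell at 4 weeks, 2 rose at 2 weeks and 0 passed with MYC. The part of any of these cells in the replication results was not tested.

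Other genes of S phase and mitosis gave the surroundings of these changes. Of all tested genes 18.1% were higher at 4 weeks, 15.1% at 2 weeks and 9.76% with MYC. The shares that were lower were 15.7%, 12.7% and 8.56%. Of the 10 Mcm family genes, 5 rose at 4 weeks, 7 at 2 weeks and 6 with MYC, and Mcm10 fell in each comparison, to 8.38, 4.13 and 4.62 CPM at 4 weeks and 9.21 and 6.04 CPM at 2 weeks, against 81.6 and 78.1 CPM in YAP controls. Of 32 further replisome and origin genes, 9 rose and 1 fell at 4 weeks, 12 rose and 1 fell at 2 weeks, and 14 rose and 1 fell with MYC; the genes that fell were Rnaseh2c, a subunit of ribonuclease H2, at both YAP times and Pold4, the small subunit of polymerase delta, with MYC. Ticrr, which helps CDC45 load, was at 8.51, 1.66 and 3.61 CPM at 4 weeks and 4.75 and 5.38 CPM at 2 weeks, against 0.0966 and 0 CPM in YAP controls. Among 12 genes of deoxynucleotide supply, 2 rose and 4 fell at 4 weeks (Nme1, Cmpk1, Shmt1 and Mthfd1), 2 rose and 1 fell at 2 weeks (Nme1), and 5 rose with MYC. Of 13 chromatin assembly genes beside CAF-1, 4 rose at 4 weeks, 4 rose and 1 fell at 2 weeks (Rbbp4) and 7 rose with MYC; Dnmt1, the maintenance DNA methyltransferase, rose in all 3. In the E2F and RB family beside the members, 3 of 15 rose at 4 weeks, 2 at 2 weeks and 4 with MYC. For this list and deoxynucleotide supply, the numbers that rose with YAP were near the shares of all genes. These counts depended on scaling: with total counts, 23, 20 and 24 of the 32 replisome and origin genes rose at 4 weeks, at 2 weeks and with MYC, and 0 genes fell in the lists of replisome, deoxynucleotide and chromatin genes, while Mcm10 fell as before.

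Genes of mitosis had larger median changes than the replication genes in each comparison. Of 26 genes 22 rose at 4 weeks, 23 at 2 weeks and 8 with MYC, with median log2 fold changes of 3.74, 3.74 and 2.25, and with total-count scaling 26, 26 and 20 rose. The summed level of the list was 823, 179 and 274 CPM at 4 weeks and 312 and 650 CPM at 2 weeks, against 38.7 and 27.8 CPM in YAP controls, and 797, 3104 and 1396 CPM in MYC livers, against 250 and 248 CPM in MYC controls. The summed level was thus higher in both MYC controls than in both YAP controls, a difference between the models that was not tested. Of 12 tested S-phase cyclins, kinases and inhibitors, 10 rose at 4 weeks, 9 at 2 weeks and 6 with MYC, and Ccnd1, which encodes cyclin D1, fell with MYC. Cdkn1a, the inhibitor p21 that binds both cyclin kinases and PCNA, was at 57.4, 37.5 and 48.4 CPM at 4 weeks and 48.2 and 68.0 CPM at 2 weeks, against 0.870 and 0.849 CPM in YAP controls. Its log2 fold changes were 5.78 ± 0.44 (adjusted p = 2.81e-05) at 4 weeks, 6.07 ± 0.46 (adjusted p = 5.28e-05) at 2 weeks and 2.07 ± 0.33 (adjusted p = 0.00245) with MYC.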

How the data were processed

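Total RNA of 12 livers was sequenced; per the labels' protocols it was extracted with TRIzol and RNeasy columns, treated with DNase and made into libraries with the Nugen Ovation Mouse system. Per the submitters' processing notes, the tools were HISAT2 2.1.0, DESeq2 1.20.0, Trim Galore 0.4.1 and featureCounts 1.6.3, and the build GRCm38 (mm10); which tool made the deposited values is not stated. The deposited values are raw counts per gene symbol, 1 column per library. Strand setting, annotation release and multi-mapped reads are not given in the sources used here. The counts were tested with edgeR 4.0.16 (R 4.3.3) over all 12 libraries: filterByExpr, TMM, 1 mean per group, robust quasi-likelihood fit, two-sided, Benjamini-Hochberg over 17964 genes, call at adjusted p under 0.05. The fit had 7 residual degrees of freedom, with a common biological coefficient of variation of 31.5%. Standard errors were worked back from edgeR's test, as the absolute log2 fold change divided by the square root of its F statistic. In the 9 replicate pairs, chi-square per degree of freedom was 11.2 to 107, so no 2 libraries agreed within counting error. The steps were tested on simulated data. 6 comparisons were made: both YAP times and MYC against controls, 4 against 2 weeks, and the MYC effect minus each YAP effect. The members, lists and motifs were chosen with earlier results of these data known. Any member could be named, with values per library for those with the smallest p of their role or a deviating direction; of other lists, at most the 3 genes with the smallest p, beside Mcm family genes and markers; Pold4, Cmpk1, Shmt1, Rbbp4 and Ccnd1 were named after their values were seen. Orc1 folds use a floor of 3 counts per library. Gene positions, exon lengths and overlaps come from GENCODE vM21 on GRCm38. Alternatives were total-count scaling, DESeq2's size factors, DESeq2 1.42.0 as the test, no count filter, a replicate block, fits on the groups compared alone, and leaving out each library.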

Additional observations from a re-analysis of the deposited data

Results flagged for a closer look

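Orc6 was the only member whose MYC effect differed from a YAP effect in edgeR's test: the log2 fold change with MYC exceeded that at 4 weeks of YAP by 1.94 ± 0.53 (adjusted p = 0.0468). All 3 MYC livers (6.79 to 12.9 CPM) lay above both MYC controls (1.59 and 1.64 CPM), and all 3 4-week livers (4.36 to 8.70 CPM) lay above both YAP controls (4.03 and 4.35 CPM). The induced groups overlapped each other, while the 2 control groups did not. No cause of this difference was tested.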

How the results depend on the processing

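Counts of members called kept within 1.5 times of the reported value except as follows. Total-count scaling gave 27 at 4 weeks of YAP, 28 at 2 weeks and 0 for MYC minus 4 weeks. DESeq2 gave 2 for MYC minus 4 weeks and 2 for MYC minus 2 weeks. For MYC minus 4 weeks, the replicate block and the fit on the groups compared alone each gave 0. Leaving out 1 library gave 4 to 17 at 4 weeks, 4 to 11 at 2 weeks, 2 to 23 with MYC, 0 to 0 for 4 against 2 weeks, and 0 to 1 for either difference. Same-numbered libraries did not deviate together over all tested genes (correlations -0.0316 to 0.0816). In groups of 2 livers the deviations from the mean mirror each other, so these values cannot settle whether the numbers pair livers. The replicate block gave 11 members at 4 weeks, 15 at 2 weeks and 15 with MYC. Of 1308 alternatives for single members, 1075 kept direction and side of the threshold, 147 lost the call, 64 gained it and 22 turned sign, none of them a called result. At 4 weeks, total-count scaling turned Gins1 (0.71), Pola2 (0.63), Rfc1 (0.63) and Rfc2 (0.61), and no filter turned Gins1 (0.0054). Leaving out 1 library at 4 weeks gave ranges across 0 for Gmnn (-0.12 to 0.52), Gins1 (-0.26 to 0.32), Rfc2 (-0.25 to 0.0056), Rfc4 (-0.0086 to 1.01) and Rpa3 (-0.24 to 0.51). At 2 weeks, total-count scaling turned Rfc2 (0.38) and Rpa3 (0.50), and leaving out 1 library gave Gins3 -0.063 to 2.53, Pola2 -0.068 to 0.19, Rpa3 -0.38 to 0.36 and E2f8 -1.73 to 0.25. With MYC it gave Gins4 -0.084 to 0.21 and Rpa1 -0.011 to 0.59. The cause was not tested. With 2 control livers a model, and Orc1, Fen1, Pole2 and Cdc6 near 0 in YAP controls, fold sizes of these genes are imprecise.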
